A study of Arabidopsis thaliana with 6 samples.

Results

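PRXCB (AT3G49120, also PER34) and 7 related class III peroxidase genes of Arabidopsis thaliana were followed, 8 of the 31109 genes in the tables. The others were PRXCA (AT3G49110, also PER33), PER32 (AT3G32980), PER37 (AT4G08770), PER38 (AT4G08780), PER22 (AT2G38380), PER23 (AT2G38390) and PER24 (AT2G39040). They were taken by gene identifier, and the list was drawn up with earlier results of these data known. The list may have been chosen by the measured fold changes of any of the 3 comparisons, so the differences of these 8 genes are given as a description and not as a test. Whether one of them was called or passed the threshold describes the fit only and is no evidence of a difference. All 8 carry a peroxidase product in the reference annotation, and each had 1 transcript in the tables.

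For every transcript the reads in a stretch of 500 bases just downstream of its annotated 3' end were counted, and this stretch is called a window here. RNA came from 9-day-old seedlings of the Col-0 ecotype in 3 genotypes, with 2 libraries each. These were cpsf30-1, a mutant in a component of the mRNA cleavage and polyadenylation complex, then nerd-1, a mutant in a factor of small RNA-guided gene silencing, and the wild type (WT). The comparisons ask how each mutant line differs from WT in reads past gene ends, and how the mutants differ from each other. The labels name the alleles only and do not describe the lesions or any treatment, and they give the tissue as seedlings.

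Class III peroxidases are secreted haem enzymes of plants that use hydrogen peroxide to oxidise phenolic compounds, and so cross-link cell walls and help to build lignin. They can also produce reactive oxygen species outside the cell. In Arabidopsis, PRXCA and PRXCB are known for the oxidative burst that follows recognition of microbes, and many family members are made in roots. Cleavage and polyadenylation set the 3' end of an mRNA, so polyadenylated reads in a window can come from transcripts that run past the annotated end or from a neighbouring gene that lies there. Below, a level always means the reads of a window and not the expression of the gene upstream, and in seedlings, which hold many cell types, fewer cells of a type and less RNA per cell cannot be told apart.

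The 8 genes include 3 neighbouring pairs. PRXCA and PRXCB lie in tandem on chromosome 3, on the + strand, with 4385 bases between them and 90.4% identity of their coding sequences. PER22 and PER23 lie in tandem on chromosome 2, on the + strand, 897 bases apart, with 90.6% identity. PER37 and PER38 point away from each other on chromosome 4, 3706 bases apart, with 93.8% identity. PER32 lies apart on chromosome 3 and shares 83.1% with PRXCA and 84.2% with PRXCB. PER24 lies apart on chromosome 2 and is the most distant, with 47.4% to 49.2% identity to the others. Close copies can share reads, so each 31-base word was looked up in the genome. In the coding sequence of PRXCB 18.2% of these words occur elsewhere, and 17.9% in that of PRXCA. In the windows no word occurs elsewhere, except 7.23% of the words in the window of PER37.

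The sequences at the annotated ends show where the windows begin, for the genes that differed most (PRXCB and PER24), for the tandem partner of PRXCB and for PER38, whose end overlaps another gene. They are from RefSeq, build TAIR10.1, 5' to 3' on the strand of the gene. Capitals mark the last 15 bases of the transcript, and the small letters are the first 15 bases of the window.
PRXCB, chr3:18210319-18210348, + strand: ACTTCGGTCTTTTTAatgcccttgttactt
PRXCA, chr3:18203251-18203280, + strand: TAAAACGTATCTAACtttgtggccttgcat
PER24, chr2:16299227-16299256, - strand: TAAGTAGAACGCTGTccggttaaaaaaaaa
PER38, chr4:5608276-5608305, + strand: ATCTATTAAATGTTGtgtacaaatactacc

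The canonical polyadenylation hexamer AATAAA was searched because cpsf30-1 affects the complex that reads such signals. Over 30620 genes, 8.78% have it in the last 50 bases of the transcript, 45.0% have it in the window on the same strand, and 0.738% have it across the annotated end. PRXCA holds it 17 bases before its annotated end and again from base 428 of its window. PER23 holds it across its annotated end, starting 4 bases before the end of the transcript. PRXCB, PER24 and PER38 have no match on their own strand in the last 50 bases, across the end or in the window. PER22, PER32 and PER37 have no match in the last 50 bases but 1, 1 and 2 in the window, the first from base 312, 168 and 314. On the other strand the window of PER24 holds 4 matches and that of PRXCA 1. Capitals mark the hexamer in these stretches.
PRXCA before its end, chr3:18203237-18203266, + strand: agatatataaagAATAAAacgtatctaact
PRXCA in its window, chr3:18203681-18203710, + strand: ttggagaacttgAATAAAacaaggattctc
PER23 across its end, chr2:16081656-16081685, + strand: tccatttctataAATAAAtatcgaggttat
PER22 in its window, chr2:16079081-16079110, + strand: gaacacgtcacaAATAAAacgtaattatgg
A match is a run of letters and not a mapped cleavage site, and no match says only that these letters are not in the stretch searched.

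The cpsf30-1 libraries summed to 13973971 and 15382351 counts, the nerd-1 libraries to 13353807 and 13301722, and the WT libraries to 11793952 and 18569498. The SD of the log2 difference between the libraries of a genotype was 0.666 in cpsf30-1, 0.570 in nerd-1 and 0.856 in WT. The labels do not say whether the replicates were grown apart, so p-values measure only the spread between these libraries, and that spread may be technical. The window past the shorter CPSF30 transcript, AT1G30460.2, held 1 and 0 counts in cpsf30-1, 66 and 58 in nerd-1, and 43 and 49 in WT, while that past the longer one, AT1G30460.1, held 2 to 16 counts in all libraries. Past NERD, cpsf30-1 replicate 1 had 3 counts and the 5 other libraries had 0, which leaves the nerd-1 lesion unchecked. Levels are given as CPM, counts scaled to a common library size with the TMM correction for library composition. A count of 0 in a library allows up to 0.226 to 0.339 CPM, taken from 3 counts, and such floors and all counting intervals cover counting error only. Windows were all 500 bases long, so levels of different genes compare per length. Low windows were filtered out, which left 14151 windows tested, among them 5 of the 8 peroxidases. PER23, PER32 and PER37 did not pass. A window that is high in 1 genotype only can pass through that genotype, so counts among the 5 are no evidence about the 8.

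Among the 8 windows, 2 stood out, in opposite directions. Reads past PRXCB were high in both cpsf30-1 libraries and low or absent elsewhere, while reads past PER24 were highest in WT and lowest in cpsf30-1. In cpsf30-1 against WT, 1 of the 5 tested peroxidases was higher and 1 lower at an adjusted p under 0.05 in edgeR (2 called by DESeq2), where 10.3% of all windows were called, 7.41% higher and 2.85% lower. In nerd-1 against WT 0 of the 5 were called by edgeR or DESeq2, where edgeR called 0.0424% of all windows, 0.00707% higher and 0.0353% lower. An unadjusted p under 0.05 was found there in 2 of the 5 and in 9.82% of all windows. In cpsf30-1 against nerd-1 1 of the 5 was higher and 0 lower in edgeR, and DESeq2 called 2, where 10.6% of all windows were called, 7.38% higher and 3.24% lower, by edgeR. DESeq2 called 14.2%, 1.07% and 14.0% of all windows in these 3 comparisons. Since the choice of genes may have used these comparisons, nothing is read from their counts.

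**Figure D1:**
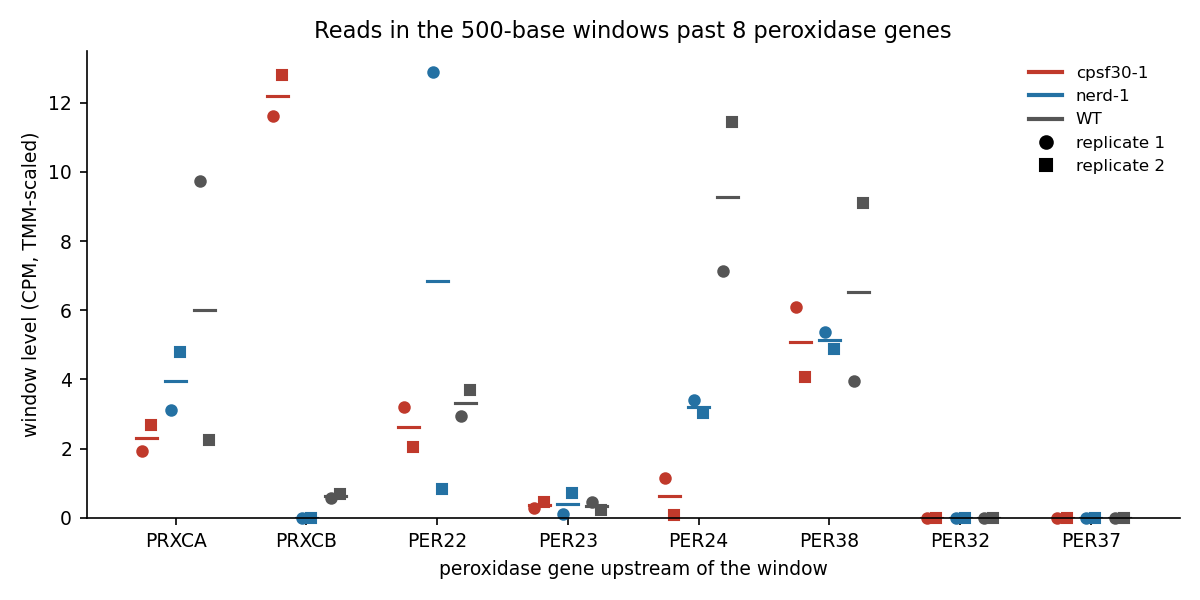
Levels of the 8 windows (y axis, CPM scaled by TMM) for each peroxidase gene (x axis), with 1 point per library, coloured by genotype, and a line at the mean of 2 libraries. PRXCB is high in both cpsf30-1 libraries, at 11.6 and 12.8 CPM, PER24 is highest in both WT libraries, at 7.13 and 11.4 CPM, and PER32 and PER37 lie at 0 throughout.

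PRXCB is a peroxidase of the oxidative burst. Its window, chr3:18210334-18210833, held 120 and 138 counts in the cpsf30-1 libraries, 0 and 0 in the nerd-1 libraries, and 5 and 9 in the WT libraries. Both cpsf30-1 libraries lay far above every other library, and both nerd-1 libraries lay below both WT libraries, with no overlap among the 3 genotypes. The level was 12.2 ± 0.843 CPM in cpsf30-1 and 0.621 ± 0.0787 CPM in WT (SD, n = 2 each), and the cpsf30-1 libraries differed from each other by 1.10-fold. The fitted log2 fold change of cpsf30-1 over WT was 4.25 (SE 0.399), or 19.1-fold. Of all windows, 27.5% had both cpsf30-1 libraries above both WT libraries. Against nerd-1, which had 0 counts in both libraries, the level in cpsf30-1 was at least 40.4-fold higher, with 3 counts per library as the floor. The nerd-1 level was at least 2.05-fold lower than in WT on the same floor, and this difference did not pass the threshold. Of all windows, 32.9% had both cpsf30-1 libraries above both nerd-1 libraries and 21.4% had both nerd-1 libraries below both WT libraries. With 1 library left out the log2 fold change over WT lay between 4.13 and 4.37.

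Another gene begins inside the PRXCB window. AT3G49130, which encodes a SWAP/surp RNA-binding domain protein, starts 119 bases past PRXCB on the same strand and covers 381 bases of the window, 246 of them exon. Reads that run on from PRXCB and reads of AT3G49130 therefore cannot be told apart in this window, with or without strand. The window past AT3G49130 itself held 1214 and 1024 counts in cpsf30-1, 761 and 802 in nerd-1, and 706 and 1319 in WT. Its cpsf30-1 and WT libraries overlapped, and its log2 fold change over WT of 0.25 (SE 0.183) did not pass (edgeR's quasi-likelihood test, Benjamini-Hochberg adjusted p = 0.436).

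Another window, chosen after its values were seen, lies further along AT3G49130. Its adjusted p-values below are therefore a description and not a test. The window belongs to AT3G49140, a pentatricopeptide repeat gene on the other strand, and covers 346 bases of AT3G49130, 206 of them exon. This window held 52 and 29 counts in cpsf30-1, 4 and 5 in nerd-1, and 9 and 17 in WT. Its 3 genotypes stood in the same order as in the PRXCB window, with no overlap, but less far apart. Of all windows, 27.5% had both cpsf30-1 libraries above both WT libraries and 32.9% had them above both nerd-1 libraries. Both nerd-1 libraries were below both WT libraries in 21.4%. The level was 3.86 ± 1.66 CPM in cpsf30-1 and 1.15 ± 0.184 CPM in WT (SD, n = 2 each), a log2 fold change of 1.73 (SE 0.523) that did not pass (edgeR, adjusted p = 0.0813). Against nerd-1, at 0.455 ± 0.0916 CPM (SD, n = 2), the log2 fold change of cpsf30-1 was 3.05 (SE 0.590, edgeR adjusted p = 0.0235). That call was lost without any 1 nerd-1 or cpsf30-1 library.

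**Figure D2:**
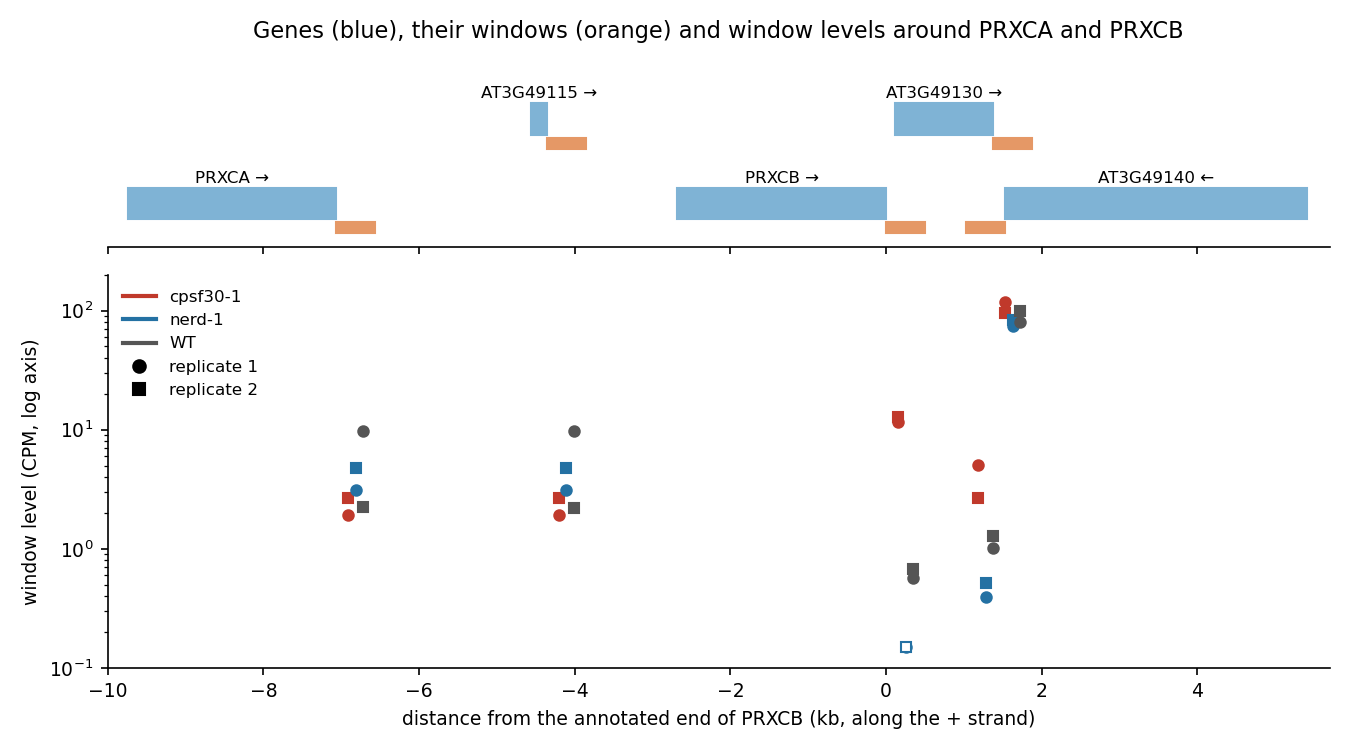
Genes (blue, arrows give the strand) and their 500-base windows (orange) around PRXCA and PRXCB, above the level of each window (y axis, CPM on a log axis) at its distance from the annotated end of PRXCB (x axis, kb), with 1 point per library. Open symbols at the bottom stand for the 0 counts of both nerd-1 libraries past PRXCB and are not measured levels. The cpsf30-1 libraries are far above the others past PRXCB and less so past AT3G49140, and overlap WT past AT3G49130.

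PRXCA, the tandem partner of PRXCB, did not show its pattern. Its window, chr3:18203266-18203765, held no other annotated gene and had 20 and 29 counts in cpsf30-1, 32 and 46 in nerd-1, and 86 and 30 in WT. In CPM, WT replicate 1 was the highest of the 6 and WT replicate 2 lay between the cpsf30-1 libraries. Both cpsf30-1 libraries lay below both nerd-1 libraries, as in 29.5% of all windows. The levels were 2.31 ± 0.534 CPM in cpsf30-1, 3.95 ± 1.17 CPM in nerd-1 and 5.99 ± 5.28 CPM in WT (SD, n = 2 each). The log2 fold change was -1.34 (SE 0.676) for cpsf30-1 over WT, -0.57 (SE 0.653) for nerd-1 over WT and -0.77 (SE 0.684) for cpsf30-1 over nerd-1. None passed the threshold. The WT libraries differed 4.31-fold. Without WT replicate 1 the first value was 0.04 and the second 0.80, while without WT replicate 2 the first was -2.09.

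The counts past PRXCA were nearly repeated past AT3G49115, a small gene between PRXCA and PRXCB whose window begins 2210 bases further on. That window held 20 and 29 counts in cpsf30-1, 32 and 46 in nerd-1, and 86 and 29 in WT. It equals the PRXCA window in 5 of 6 libraries and differs by 1 count in the sixth. Of 3683 neighbouring pairs of windows at least 1000 bases apart, each window with a total of at least 100 counts, 28 pairs (0.760%) were equal in 5 or more libraries. What the equal counts rest on was not tested, and the 2 windows do not count as separate measurements.

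PER22 and PER23, the tandem pair of chromosome 2, had no other annotated gene in their windows. The window past PER22, chr2:16078782-16079281, held 33 and 22 counts in cpsf30-1, 132 and 8 in nerd-1, and 26 and 49 in WT. The nerd-1 libraries were the highest and the lowest of the 6, 15.5-fold apart in CPM, and the cpsf30-1 and WT libraries overlapped. The level was 2.62 ± 0.815 CPM in cpsf30-1, 6.86 ± 8.52 CPM in nerd-1 and 3.31 ± 0.526 CPM in WT (SD, n = 2 each). In log2 terms the fold change was -0.35 (SE 0.990) for cpsf30-1 over WT, 1.04 (SE 0.949) for nerd-1 over WT and -1.39 (SE 0.969) for cpsf30-1 over nerd-1, none past the threshold. Without nerd-1 replicate 1 the last 2 changed sign, to -1.98 and 1.64. The window past PER23, chr2:16081672-16082171, held 3 and 5 counts in cpsf30-1, 1 and 7 in nerd-1, and 4 and 3 in WT. All genotypes overlapped there, near the floor of 3 counts, and a difference was not detectable at this depth.

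PER24 was the second window that stood out. Its window, chr2:16298742-16299241, held 12 and 1 counts in cpsf30-1, 35 and 29 in nerd-1, and 63 and 152 in WT. The genotypes did not overlap in any of the 3 comparisons, with cpsf30-1 lowest, nerd-1 between and WT highest. Both libraries of the mutant were below both WT libraries in 24.6% of all windows for cpsf30-1 and in 21.4% for nerd-1, and both cpsf30-1 libraries were below both nerd-1 libraries in 29.5%. The level was 0.627 ± 0.755 CPM in cpsf30-1, 3.22 ± 0.283 CPM in nerd-1 and 9.28 ± 3.04 CPM in WT (SD, n = 2 each). The log2 fold change of cpsf30-1 over WT was -3.89 (SE 0.732), or 14.8-fold lower. That of nerd-1 over WT was -1.53 (SE 0.612) and that of cpsf30-1 over nerd-1 was -2.35 (SE 0.754), neither past the threshold in edgeR. By DESeq2 and with no filter on low counts the difference of cpsf30-1 from nerd-1 passed, and with no filter so did that of nerd-1 from WT. The size rests on few cpsf30-1 counts. The ratio of WT over cpsf30-1 was 15.8, with 9.03 to 30.1 as its 95% counting interval. It was 105 (18.6 to 4150) without cpsf30-1 replicate 1, from 1 count, and 8.37 (4.69 to 16.4) without replicate 2.

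PER24 and NATA1 converge, with 36 bases between their ends. NATA1 encodes an acetyltransferase that acts on ornithine in the jasmonate response. The PER24 window lies on NATA1 exons over 464 bases, so reads of NATA1 would be counted under PER24 if the counting did not use strand, which the sources used here do not give. The NATA1 window lies in turn on PER24 exons over 464 bases. It held 156 and 197 counts in cpsf30-1, 105 and 95 in nerd-1, and 106 and 175 in WT. The order of the genotypes there was cpsf30-1, WT, nerd-1, in CPM, with no overlap, unlike the order past PER24. Of all windows, 27.5% had both cpsf30-1 libraries above both WT libraries and 32.9% had them above both nerd-1 libraries. Both nerd-1 libraries were below both WT libraries in 21.4%. The level past NATA1 was 16.7 ± 2.25 CPM in cpsf30-1, 10.1 ± 0.260 CPM in nerd-1 and 12.6 ± 0.828 CPM in WT (SD, n = 2 each). The log2 fold change was 0.41 (SE 0.199) for cpsf30-1 over WT, -0.32 (SE 0.202) for nerd-1 over WT and 0.73 (SE 0.201) for cpsf30-1 over nerd-1. None passed (edgeR, adjusted p = 0.237, 0.628 and 0.0631).

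**Figure D3:**
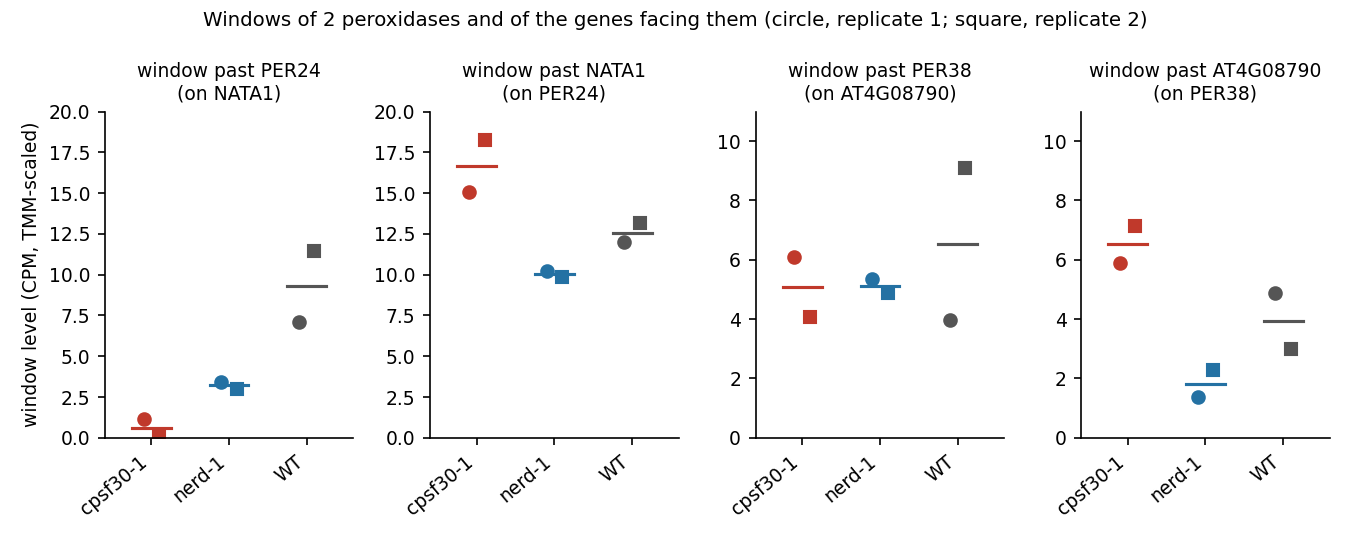
Levels (y axis, CPM scaled by TMM) in the windows past PER24 and NATA1 and past PER38 and AT4G08790, each of which lies on the other gene of its pair, by genotype (x axis), with 1 point per library and a line at the mean. Past PER24 the cpsf30-1 libraries are lowest, while past NATA1 they are highest. The y axes of the left and right pairs of panels differ.

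PER37 and PER38 are the closest copies. The window past PER37, chr4:5597537-5598036, had 0 counts in all 6 libraries, as did that past PER32, chr3:13525571-13526070. The floors of 3 counts put both below 0.339 CPM in every library. The window past PER38, chr4:5608291-5608790, held 63 and 44 counts in cpsf30-1, 55 and 47 in nerd-1, and 35 and 121 in WT. The WT libraries were the lowest and the highest of the 6, so the genotypes overlapped throughout. Its level was 5.09 ± 1.42 CPM in cpsf30-1, 5.13 ± 0.339 CPM in nerd-1 and 6.53 ± 3.64 CPM in WT (SD, n = 2 each). As log2 fold changes, the differences were -0.38 (SE 0.436) for cpsf30-1 over WT, -0.37 (SE 0.437) for nerd-1 over WT and -0.01 (SE 0.443) for cpsf30-1 over nerd-1. Without WT replicate 2 the first 2 were 0.32 and 0.38.

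PER38 and AT4G08790, a nitrilase family gene on the other strand, overlap by 143 bases at their ends. The PER38 window lies inside AT4G08790, with 305 of its bases exon, and the AT4G08790 window lies on PER38, with 420 bases exon. The AT4G08790 window held 61 and 77 counts in cpsf30-1, 14 and 22 in nerd-1, and 43 and 40 in WT. The cpsf30-1 libraries were highest and the nerd-1 libraries lowest, with no overlap. Of all windows, 27.5% had both cpsf30-1 libraries above both WT libraries and 32.9% had them above both nerd-1 libraries. Both nerd-1 libraries were below both WT libraries in 21.4%. The level past AT4G08790 was 6.52 ± 0.878 CPM in cpsf30-1, 1.83 ± 0.652 CPM in nerd-1 and 3.94 ± 1.31 CPM in WT (SD, n = 2 each). The log2 fold change of cpsf30-1 over nerd-1 was 1.83 (SE 0.427) and passed (edgeR, adjusted p = 0.0390), but not without any 1 nerd-1 or cpsf30-1 library. That of cpsf30-1 over WT was 0.74 (adjusted p = 0.280) and that of nerd-1 over WT was -1.09 (adjusted p = 0.476), neither past the threshold in edgeR.

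Within a genotype the order of the windows changed. In cpsf30-1 PRXCB was highest, above PER38, PER22 and PRXCA, and PER24 and PER23 were below 1 CPM. In nerd-1 PER22 had the highest mean, but its spread covered PER38, PRXCA and PER24, and PRXCB was at 0. In WT PER24, PER38 and PRXCA were highest and did not differ beyond their SDs, followed by PER22, PRXCB and PER23. The 3 windows with the least difference from PRXCB in centred log2 CPM over the 6 libraries were those past AT5G45430, AER and BXL3, with root mean square differences of 0.350, 0.497 and 0.517. For PER24 they were those past HB4, AT5G15270 and EMB2770, at 0.446, 0.578 and 0.650.

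The other 65 class III peroxidases were listed by identifier and not picked for how they moved. Of these, 31 were tested, 34 did not pass the filter and 5 of the 34 had 0 counts in all libraries. In cpsf30-1 against WT 0 of the 31 were called by edgeR, where 10.3% of all windows were, and 2 by DESeq2. An unadjusted p under 0.05 was found in 6 of them and in 27.7% of all windows, and the median log2 fold change was 0.03, against -0.01 over all windows. For nerd-1 against WT 0 were called by edgeR, where 0.0424% of all windows were, and 1 by DESeq2. There 5 of the 31 and 9.82% of all windows had an unadjusted p under 0.05, and the median was 0.04, against -0.01. In cpsf30-1 against nerd-1 edgeR called 1 higher and 0 lower, where 7.38% and 3.24% of all windows were, and DESeq2 called 2, and the median was -0.07, against 0.04. The 31 ranged from -1.85 to 1.86 in cpsf30-1 against WT and from -2.63 to 1.10 in nerd-1 against WT. The one called was PER36 (AT3G50990), known for the release of seed coat mucilage. Its window held 284 and 145 counts in cpsf30-1, 18 and 35 in nerd-1, and 89 and 305 in WT. It was lowest in nerd-1, and its cpsf30-1 and WT libraries overlapped. The log2 fold change of cpsf30-1 over nerd-1 was 2.92 (SE 0.565, edgeR adjusted p = 0.0236), and the call was lost without either nerd-1 library or without cpsf30-1 replicate 1. The window covers 287 bases of AT3G51000 on the other strand.

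**Figure D4:**
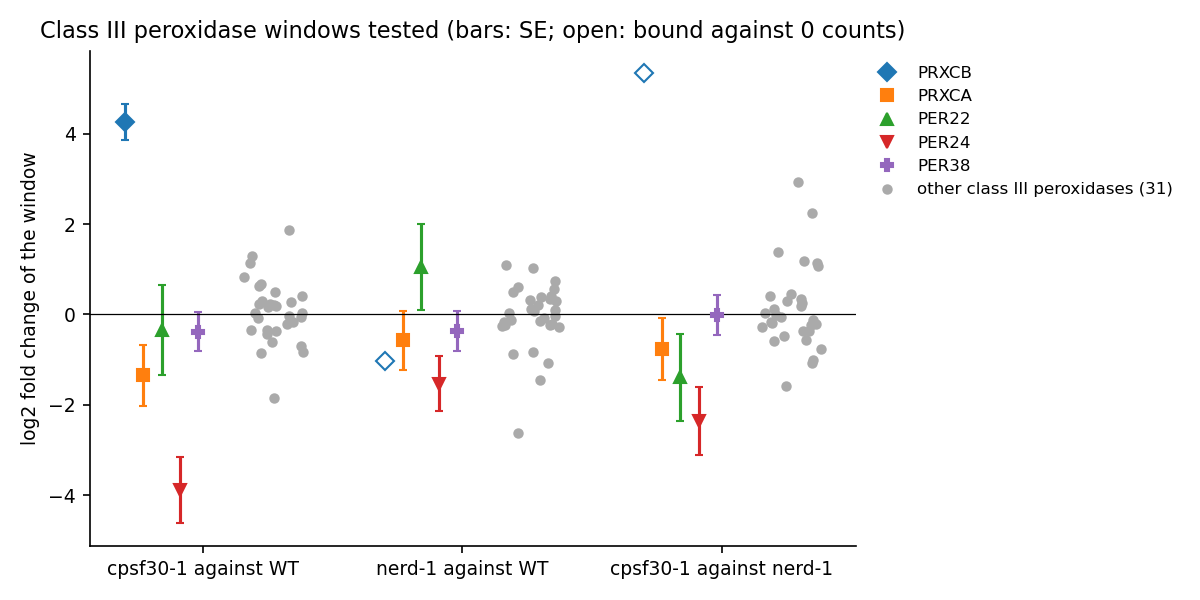
Log2 fold change of the window (y axis) in each comparison (x axis) for the 5 peroxidases described here that were tested (coloured, bars are SE) and the 31 other class III peroxidases tested (grey). Open diamonds are the bounds of PRXCB against the 0 counts of nerd-1. The grey points lie between -1.85 and 1.86 in cpsf30-1 against WT, and the coloured genes were chosen with these values known.

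Some neighbours have windows that lie on peroxidase exons, as at PER24 and PER38. All such windows with at least 250 exon bases on a class III peroxidase gene were gathered, a list made after the data were seen. Windows on either strand were taken. The strand setting of the counting is not given, so whether they hold peroxidase reads is not known. There were 21 such windows, and 18 were tested, on 18 peroxidases that include PER24 and PER38. In nerd-1 against WT 15 of the 18 log2 fold changes were below 0, with a median of -0.40 against -0.01 over all windows. In 12 of the 18 both nerd-1 libraries were below both WT libraries, against 21.4% of all windows. In 3, the windows on PER55, PER63 and PER66, both were above, against 22.0% of all windows. By edgeR and DESeq2 0 were called, where edgeR called 0.0424% of all windows. An unadjusted p under 0.05 was found in 6 of the 18 and in 9.82% of all windows. Among these 6 the window on PER66 was higher in nerd-1, with a log2 fold change of 0.36 (SE 0.147). With 1 library left out, 13 to 15 were below 0. The window on PER3, for example, had 59.1 ± 0.302 CPM in nerd-1 and 86.8 ± 8.16 CPM in WT (SD, n = 2 each; edgeR adjusted p = 0.367). The window on PER64, a peroxidase of lignin formation in the Casparian strip, had 43.7 ± 1.46 CPM in nerd-1 and 62.6 ± 10.5 CPM in WT (SD, n = 2 each; edgeR adjusted p = 0.422).

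In cpsf30-1 against WT the same windows were evenly split, with 9 below and 9 above 0, and 1 was called by edgeR and by DESeq2, where edgeR called 10.3% of all windows. That one, past PSD3 on PER43, had 9.93 ± 2.37 CPM in cpsf30-1 and 2.35 ± 0.670 CPM in WT (SD, n = 2 each), a 4.26-fold increase (edgeR adjusted p = 0.0160) that was lost without cpsf30-1 replicate 1 or WT replicate 2. In cpsf30-1 against nerd-1 13 of 18 were above 0, with a median of 0.41 against 0.04 over all windows. Both cpsf30-1 libraries were above both nerd-1 libraries in 10 of the 18 and in 32.9% of all windows. They were below both in 4 of the 18 and in 29.5% of all windows. An unadjusted p under 0.05 was found in 10 of the 18 and in 28.8% of all windows. By edgeR 3 were higher, where 7.38% of all windows were, and DESeq2 called 6, where it called 14.0% of all windows. The 3 were the windows on PER38, given above, on PER27 (1.63-fold, adjusted p = 0.0475) and on PER43 (5.46-fold, adjusted p = 0.0133). With 1 library left out the calls in this comparison ranged from 0, without either nerd-1 library or cpsf30-1 replicate 1, to 7, without WT replicate 2. The 3 comparisons share libraries, so they are not independent of each other.

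**Figure D5:**
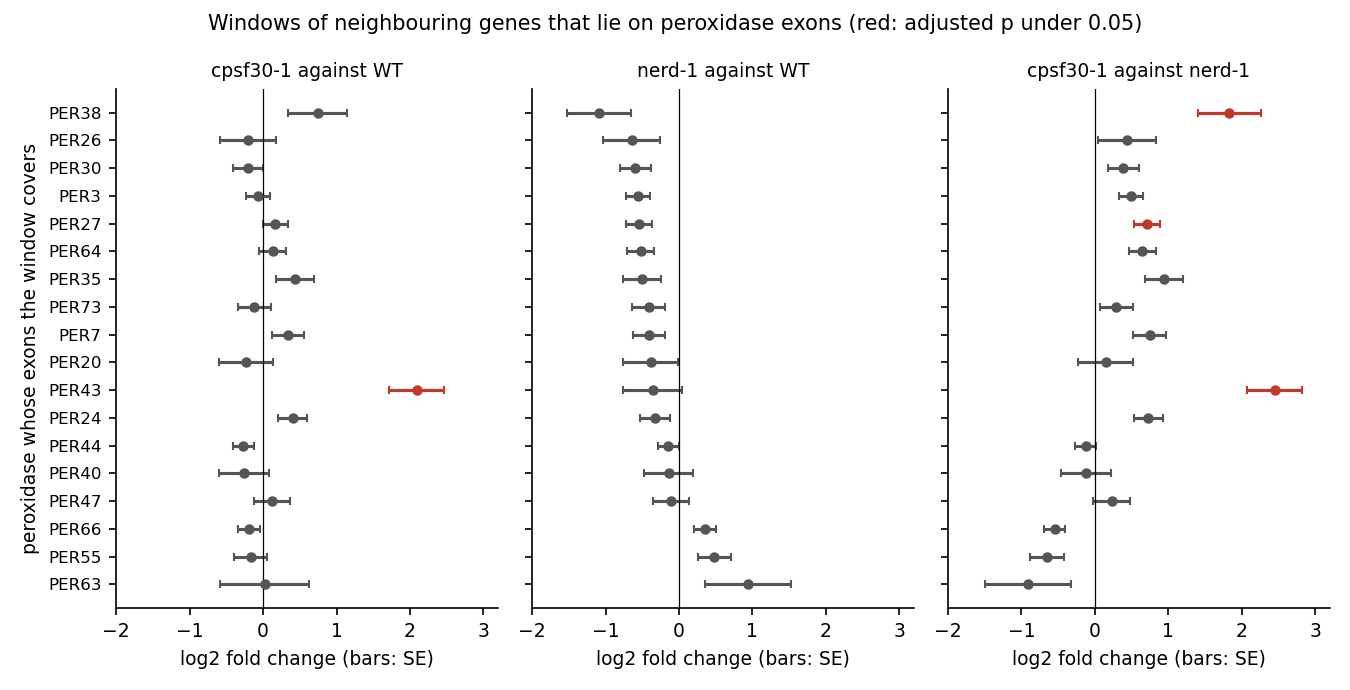
Log2 fold change (x axis, bars are SE) of the 18 tested windows of neighbouring genes that lie on peroxidase exons, named by the peroxidase (y axis), in each comparison, with red for an adjusted p under 0.05. In nerd-1 against WT 15 of the 18 lie below 0 and none is red.

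Enzymes that work beside the peroxidases were read from lists made by gene identifier. Of 10 respiratory burst oxidases, which make the superoxide that yields hydrogen peroxide outside the cell, 4 windows were tested and 1 was called by edgeR in each comparison with cpsf30-1, where 10.3% of all windows were against WT and 10.6% against nerd-1. Neither edgeR nor DESeq2 called any of the 4 in nerd-1 against WT (0, with 0 at an unadjusted p under 0.05). The window past RBOHA held 512 and 375 counts in cpsf30-1, 22 and 35 in nerd-1, and 13 and 31 in WT. Both cpsf30-1 libraries were far above all others. The level was 42.2 ± 10.4 CPM in cpsf30-1 and 1.90 ± 0.609 CPM in WT (SD, n = 2 each), with a log2 fold change of 4.43 over WT (SE 0.373, edgeR adjusted p = 0.00224) and 3.86 over nerd-1 (SE 0.360, edgeR adjusted p = 0.00278). All 500 bases of that window lie on AT5G07380. Of 3 laccases, which also oxidise lignin precursors, 2 were tested and 0 were called in any comparison by edgeR or DESeq2. An unadjusted p under 0.05 was found in 1 of the 2 in cpsf30-1 against WT, where 27.7% of all windows had it. In the other comparisons 0 of the 2 had it.

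Several family members are root genes, so the windows past 10 root markers were summed as well. The sums were 144 and 121 CPM in cpsf30-1, 162 and 158 CPM in nerd-1, and 157 and 153 CPM in WT, with 0 to 4 of the 10 markers at 0 in a library. The cpsf30-1 sums lay below the others, but the markers did not all move this way. In cpsf30-1 against WT 1 of the 6 tested had a log2 fold change above 0. LRX1 had a mean of 50.3 CPM in cpsf30-1, 39.6 CPM in nerd-1 and 39.9 CPM in WT. For CASP2, which weighs most in the sums, the means were 50.2, 66.6 and 69.5 CPM. Of the 6 tested, edgeR called 0 in either mutant against WT, while DESeq2 called 1 in cpsf30-1 and 0 in nerd-1. Of all windows, edgeR called 10.3% in cpsf30-1 and 0.0424% in nerd-1, and DESeq2 14.2% and 1.07%. An unadjusted p under 0.05 was found in 1 of the 6 in each mutant. Over all windows it was found in 27.7% for cpsf30-1 and 9.82% for nerd-1. In cpsf30-1 against nerd-1 edgeR called 1, which was lower, where 3.24% of all windows were. This was SCR, a regulator of root patterning, with a log2 fold change of -0.95 (SE 0.205, edgeR adjusted p = 0.0321), whose window covers 351 bases of SUA. The call was lost without any 1 nerd-1 or cpsf30-1 library. The part of root content in the levels of the peroxidase windows was not tested.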

How the data were processed

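RNA from 9-day-old seedlings was sequenced from stranded polyA libraries, with paired reads of 125 bases, per the labels. The submitters' processing notes name the TAIR10 build, Cuffdiff, Cufflinks 2.2.1, TopHat2 2.0.7 and Bowtie2 2.3.4. How reads were counted, and with which strand setting, is not given in the sources used here. Raw counts per transcript were deposited by the authors, taken in the 500 bases past its 3' end, per the file names. For each of 31109 genes the transcript ending farthest downstream was kept. Positions and sequences come from the TAIR10.1 RefSeq annotation, which placed 38529 of 39087 transcripts, and were matched by gene identifier.

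The deposited counts were analysed in R 4.3.3 with edgeR 4.0.16 and limma 3.58.1. Windows passing the edgeR expression filter (14151) were scaled by TMM (factors 0.958 to 1.05), and a two-sided quasi-likelihood F-test was fitted to all 6 libraries, with 3 residual degrees of freedom. P-values were adjusted by Benjamini-Hochberg over all tested windows, with a threshold of 0.05. Folds against 0 counts use 3 counts per library. The procedure was tested on simulated data. The peroxidases and all lists were chosen with earlier results of these data known. The naming rule took the 8 peroxidases, genes sharing a window with them, called members of the lists with at least 2 CPM in the higher genotype, and CPSF30 and NERD. It also took the 3 windows nearest to PRXCB and to PER24 in centred log2 CPM, which were thus picked by their measured levels. AT3G49115, AT3G49140 and the windows on peroxidase exons fall outside the rule, having been chosen once their values were known. Alternatives were DESeq2 1.42.0, its size factors in edgeR, totals without TMM, no filter, a minimum count of 30, a fit restricted to the 4 libraries of a comparison, a block for replicate number, leaving out each library, an adjusted p under 0.01 and the transcript with the highest total.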

Additional observations from a re-analysis of the deposited data

How the results depend on the processing

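Of the fold changes of the 5 tested peroxidases under the alternatives, 194 of 210 moved by less than the spread between replicates, 16 moved more and 0 called ones changed sign. PER24 in cpsf30-1 against WT did not pass under the replicate block. PER24 in cpsf30-1 against nerd-1 passed by DESeq2 and with no filter. Without cpsf30-1 replicate 1 its log2 fold change was -4.96. For these peroxidases a pass describes the fit and is no test. In nerd-1 against WT, PRXCB and PER24 passed with no filter, as did PRXCA in cpsf30-1 against WT and PER22 in cpsf30-1 against nerd-1. The number of windows called in cpsf30-1 against WT (1453) was 2807 with no filter, 823 with only the 4 libraries compared, 345 at an adjusted p under 0.01, and 479 to 1159 with 1 library left out, always on the same 14151 windows. In nerd-1 against WT (6) it was 146 by DESeq2, 2 without TMM, 640 with no filter, 2 with 4 libraries, 0 at 0.01, and 0 to 91 with 1 left out. In cpsf30-1 against nerd-1 (1503) it was 3021 with no filter, 225 at 0.01, and 43 to 2304 with 1 left out. Among the other peroxidases the calls in cpsf30-1 against WT (0) were 2 by DESeq2, 1 with its size factors, 1 without TMM, 3 with no filter, 1 with the highest-total transcript, and 0 to 2 with 1 left out. In nerd-1 against WT (0) they were 1 by DESeq2 and 3 with no filter. In cpsf30-1 against nerd-1 (1) they were 2 by DESeq2, 3 with no filter, 2 with 4 libraries, 0 at 0.01, and 0 to 2 with 1 left out. The causes of these differences were not tested.

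With the replicate number as a block the calls were 592 in cpsf30-1 against WT, 0 in nerd-1 against WT and 409 in cpsf30-1 against nerd-1, with 0 other peroxidases in the last. The deviations of same-numbered libraries correlated at -0.311 for cpsf30-1 with WT, -0.00493 for nerd-1 with WT and -0.00103 for cpsf30-1 with nerd-1. Same-numbered libraries therefore did not deviate in the same direction. Those of cpsf30-1 and WT tended to deviate in opposite directions. The main fit took no account of this, and what it rests on was not tested. Depth limits PER23, PER32 and PER37, which stay near or at 0 counts.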
